A study of Mus musculus with 13 samples.

Results

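Interleukin-2 (Il2) and the receptor chains Il2ra and Il2rb were followed in single mouse CD8+ T cells through an infection. These genes were chosen by name and make up 3 of the 94 genes measured, on 4 of 95 assay rows, because Il2 was assayed in duplicate. The table holds 1449 cells in 13 populations, each of them 1 sample. The cells carried the OT-1 transgenic T cell receptor, which recognises ovalbumin, and the CD45.1 allele, and, apart from the naive cells, after transfer into wild-type CD45.2 C57BL/6J mice they were recovered from the spleen following intravenous infection with 5000 colony-forming units of Listeria monocytogenes that expresses ovalbumin. Unactivated naive OT-1 cells (149 cells, day 0) were the control population. Cells in their first division at day 2 (144 cells) came from mice given 2000000 CFSE-labelled cells, where CFSE is a dye that dilutes with each division. Proximal (83 cells) and distal (48 cells) daughters were also taken at day 2. Day 3 cells (143 cells) came from mice given 20000 cells. All later cells came from mice given 5000: unselected cells at day 5 (154 cells) and day 7 (134 cells), memory precursors (Tmp, 90 and 62 cells) and short-lived effectors (Tsle, 79 and 89 cells) at the same days, and central memory (Tcm, 138 cells) and effector memory (Tem, 136 cells) at day 45. The dose and the number of transferred cells are not stated separately for proximal and distal daughters. From the first division through day 3 to day 5, time and the number of transferred cells changed together and cannot be told apart, whereas the populations of day 5, day 7 and day 45 share 1 number.

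Interleukin-2 is a growth factor that T cells secrete after recognition of antigen. It binds a receptor of an alpha chain (Il2ra, CD25), a beta chain (Il2rb, CD122) and a shared gamma chain (Il2rg, not measured here). The beta and gamma chains alone bind interleukin-2 with intermediate affinity and also serve interleukin-15. The alpha chain raises the affinity, and signals run through JAK kinases and STAT5. In CD8+ T cells, naive cells carry little of the alpha chain, recent activation raises it, and the beta chain serves memory cells that live on interleukin-15.

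Transcription of Il2 and Il2ra is known to use NFAT and NF-kappa B factors, so the 250 bases before the transcription start of each are shown, as RefSeq gives them in the mouse build GRCm38.p6. Il2 and Il2ra, 2 of the 3 members, were matched in the RefSeq promoter table. The Il2 stretch is chr3:37125955-37126204 on the minus strand and the Il2ra stretch is chr2:11642542-11642791 on the plus strand, both printed 5′ to 3′ along the gene. Capitals mark the core NFAT motif (GGAAA) and a kappa B motif (GGG and CC with any 5 bases between them), searched on both strands.
Il2: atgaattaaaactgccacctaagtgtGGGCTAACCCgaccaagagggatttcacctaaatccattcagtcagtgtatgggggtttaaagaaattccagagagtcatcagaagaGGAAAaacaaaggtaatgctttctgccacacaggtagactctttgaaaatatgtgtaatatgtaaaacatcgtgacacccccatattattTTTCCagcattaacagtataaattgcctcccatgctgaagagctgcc
Il2ra: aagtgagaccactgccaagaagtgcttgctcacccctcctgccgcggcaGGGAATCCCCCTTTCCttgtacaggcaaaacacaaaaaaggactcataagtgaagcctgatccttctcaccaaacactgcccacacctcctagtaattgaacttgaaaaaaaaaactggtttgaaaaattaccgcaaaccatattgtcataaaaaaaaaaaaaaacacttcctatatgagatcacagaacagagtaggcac

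In the Il2 stretch the NFAT core stood 137 bases upstream of the start on the gene's strand and 47 bases upstream on the other strand, and a kappa B match began 224 bases upstream. In the Il2ra stretch the NFAT core began 190 bases upstream on the other strand. It directly followed 2 overlapping kappa B matches that began 201 and 200 bases upstream, the former on both strands and the latter on the other strand. The AP-1 motif TGANTCA was not found in either stretch. Such matches are common: of 32851 promoters of the same length, 55.6% held the NFAT core, 45.8% the kappa B motif and 6.75% the AP-1 motif. A match is a description of the letters and not a measured binding site, and the table holds no measurement of binding.

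The values are on the scale of PCR cycles, so 1 unit is about a doubling of template. The labels call them Ct, but higher values mark more template and 0 marks no detection, so they were read as 40 minus Ct, with the 40 inferred from the values. A cell was counted as having a transcript where its value was above 0, as deposited. Of all values, 83.4% were exactly 0. The median cell of a population had between 11 (Tem) and 19 (day 5) assays above 0. The share of cells with a transcript thus depends on detection as well as on expression: Cd8a, which encodes the alpha chain of the CD8 co-receptor by which the cells were sorted, was found in 48.0% of cells, Thy1 in 38.4% and Ptprc, which encodes CD45, in 94.3%. Regulatory T cells carry Il2ra at all times, and their defining factor Foxp3 was found in 2 of 1449 cells and in 0 of the 357 cells with Il2ra. Cd4 was found in 2 cells, 1 of them with Il2ra, and Gata3, of helper T cells, in 53 cells, 12 of them with Il2ra. R18s, Actb and Gapdh were detected in every cell. Because cells of 1 sample are not replicates, shares carry exact 95% binomial intervals that cover counting error only, no test was run, and a difference between populations was called where it reached 20 percentage points.

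**Figure D1:**
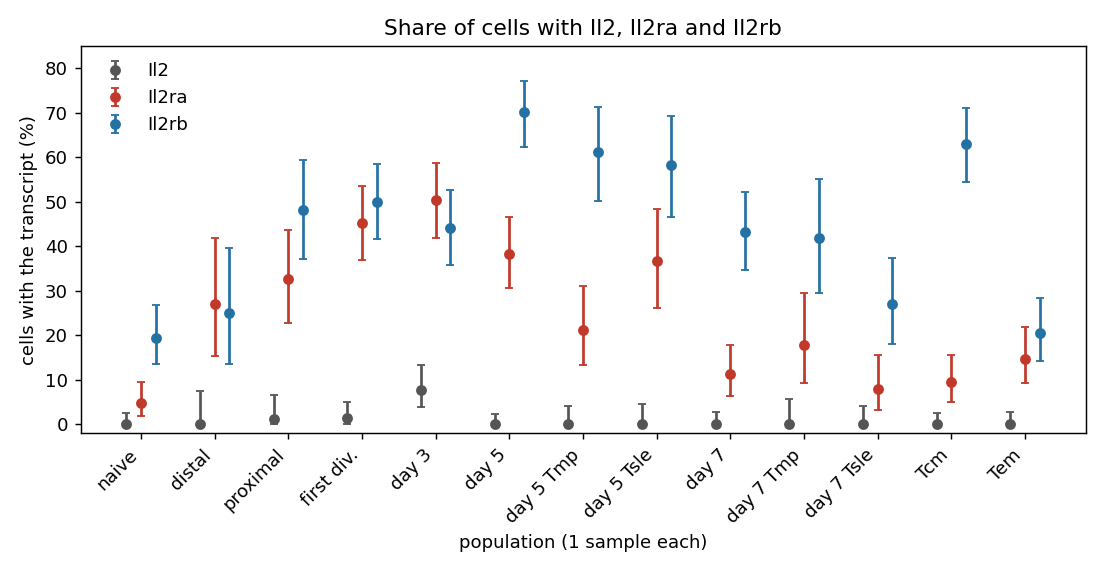
Share of cells (%) with Il2, Il2ra and Il2rb in the 13 populations; points are shares and bars exact 95% binomial intervals for counting error. Il2ra is highest at day 3 (50.3%) and Il2rb at day 5 (70.1%), Il2 reaches 7.69% at day 3, and Tcm has Il2rb in 63.0% of cells with Il2ra in 9.42%.

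Il2, the ligand, was a rare transcript. It was found in 14 of 1449 cells (0.966%, interval 0.529 to 1.62%), and 11 of these were day 3 cells. At day 3 it was found in 11 of 143 cells (7.69%, interval 3.90 to 13.3%), in the first division in 2 of 144 (1.39%, interval 0.169 to 4.93%) and in proximal daughters in 1 of 83 (1.20%, interval 0.0305 to 6.53%). It was found in 0 of the cells of the other 10 populations. A count of 0, read as fewer than 3 cells, allows a share of up to 2.01% for naive cells, 6.25% for distal daughters, 1.95% for day 5, 3.33% for day 5 Tmp and 3.80% for day 5 Tsle. The same limit is 2.24% for day 7, 4.84% for day 7 Tmp, 3.37% for day 7 Tsle, 2.17% for Tcm and 2.21% for Tem. The intervals of the first division and the proximal daughters overlap that of day 3, and the exact intervals of the distal (up to 7.40%), day 5 Tmp (4.02%), day 5 Tsle (4.56%), day 7 Tmp (5.78%) and day 7 Tsle (4.06%) cells reach into it too. Against naive cells Il2 reached a difference of 20 points in 0 of 12 populations.

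Both Il2 rows were above 0 in the same 14 cells, and no cell had a value in 1 row only. The proximal cell read 13.0 in the first row and 13.9 in the second. The first-division cells read 16.1 and 14.1 in the first row and 14.2 and 10.9 in the second. At day 3 the first row ran from 11.8 to 17.7, and the second from 11.3 to 18.6. The second row minus the first averaged -0.11 ± 1.35 cycles (SD over 14 cells), with extremes of -3.21 and 1.82, and 9 of the 14 cells lay within 1 cycle. The rows therefore returned the same cells but not the same amounts. Each population's columns were split into an earlier and a later part, and at day 3 the sign of the difference followed this order. The second row was lower in 6 of 6 earlier cells of day 3 and higher in 5 of 5 later cells. Outside day 3 all cells with Il2 lay in the earlier columns. There the second row was lower in the first-division cells and higher, by 0.89 cycles, in the proximal cell. Which array held each cell is not stated in the labels, and the part of the array in this pattern was not tested.

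**Figure D2:**
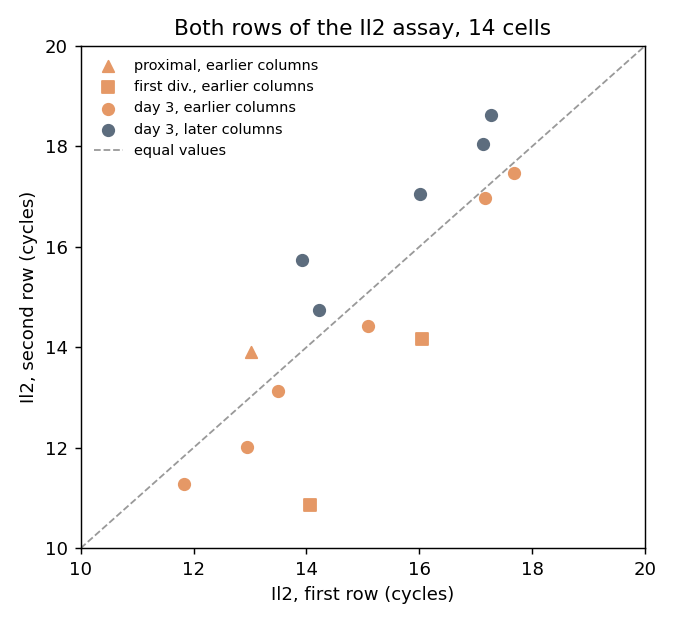
Value in cycles of the second Il2 row against the first in each of the 14 cells with Il2, coloured by position of the column in its population; the dashed line marks equal values. At day 3 the 6 earlier cells lie under the line and the 5 later cells over it.

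Every cell with Il2 also had Il2ra and Myc, a transcription factor of cell growth (14 of 14, 100%, interval 76.8 to 100%). The reverse did not hold: Il2 was found in 14 of the 129 cells with both Il2ra and Myc (10.9%, interval 6.06 to 17.5%). Il2rb was found in 8 of the 14 cells (57.1%, interval 28.9 to 82.3%), beside 44.7% of all cells. Klf2, a factor of quiescent and recirculating T cells, was found in 0 of the 14 cells and in 1002 of the 1435 others, most of which came from times at which Il2 was not found.

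Within day 3, the 3 genes whose shares differed most between the 11 cells with Il2 and the 132 without were Irf8, Irf4 and Myc. Irf8, an interferon regulatory factor, was found in 10 of 11 cells (90.9%, interval 58.7 to 99.8%) against 32 of 132 (24.2%, interval 17.2 to 32.5%). Irf4, which is induced by T cell receptor signals, was found in 9 of 11 (81.8%) against 26 of 132 (19.7%). Myc was found in 11 of 11 (100%) against 54 of 132 (40.9%). Il2ra itself ranked 5 of 93 genes by this measure, in 11 of 11 against 61 of 132 (46.2%). Il2rb was found in 7 of 11 (63.6%) against 56 of 132 (42.4%), Klf2 in 0 of 11 against 54 of 132 (40.9%), and Foxo1, a factor of quiescence, in 1 of 11 (9.09%) against 41 of 132 (31.1%). Of the other listed genes that interleukin-2 signals act on, Ifng was found in 6 of 11 (54.5%) against 13 of 132 (9.85%). Gzmb was found in 5 of 11 (45.5%) against 26 of 132 (19.7%). Mtor (27.3% and 14.4%), Eomes (18.2% and 20.5%), Hk2, Bcl6, Prdm1, Tbx21 and Id2 differed by less than 20 points. Among the listed genes upstream of Il2 transcription, Cd69, an early activation antigen, was found in 7 of 11 (63.6%) against 29 of 132 (22.0%), Tnfrsf9 (4-1BB, a costimulatory receptor) in 5 of 11 (45.5%) against 17 of 132 (12.9%) and Nfatc1 in 4 of 11 (36.4%) against 10 of 132 (7.58%). The other 4 measured genes of that list differed by less than 20 points: Rela (45.5% and 35.6%), Cd28 (27.3% and 19.7%), Nfatc2 (9.09% and 6.06%) and Mapk14 (0 of 11 and 13 of 132). Of the 93 genes other than Il2, 17.2% were higher and 5.38% lower by at least 20 points in cells with Il2. These cells also had more assays above 0, a median of 20 other assays (13 to 26) against 15 (4 to 24), and the part of detection in these differences was not tested. The Il2ra value of day 3 cells with both transcripts had a median of 16.2, beside 15.5 in cells with Il2ra and no Il2. Within the earlier columns these medians were 14.2 and 14.1, and within the later columns 17.2 and 16.3.

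Il2ra, the alpha chain, was found in 357 of 1449 cells (24.6%). Its share was lowest in naive cells, at 7 of 149 (4.70%, interval 1.91 to 9.44%). At day 2 it was found in 13 of 48 distal daughters (27.1%, interval 15.3 to 41.8%), in 27 of 83 proximal daughters (32.5%, interval 22.6 to 43.7%) and in 65 of 144 first-division cells (45.1%, interval 36.8 to 53.6%). Day 3 had the highest share, with 72 of 143 (50.3%, interval 41.9 to 58.8%). At day 5 it was found in 59 of 154 cells (38.3%, interval 30.6 to 46.5%), and at day 7 in 15 of 134 (11.2%, interval 6.40 to 17.8%). At day 45 it was found in 13 of 138 Tcm cells (9.42%, interval 5.11 to 15.6%) and 20 of 136 Tem cells (14.7%, interval 9.22 to 21.8%). The order was day 3, first division, day 5, day 5 Tsle, proximal, distal, day 5 Tmp, day 7 Tmp, Tem, day 7, Tcm, day 7 Tsle and naive. Every pair of neighbours in this order had overlapping intervals, so only distant ranks are separate in counting error.

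Against naive cells Il2ra was called higher in 6 of 12 populations. The differences were 22.4 points in distal daughters, 27.8 in proximal daughters, 40.4 in the first division, 45.7 at day 3, 33.6 at day 5 and 32.0 in day 5 Tsle. The 12 comparisons share the naive cells. The share of all 94 genes called higher was 5.32% for distal, 14.9% for proximal, 10.6% for the first division, 9.57% for day 3, 12.8% for day 5 and 12.8% for day 5 Tsle. The distal difference rests on 48 cells and moved with the column order, with 8.56 points in the earlier and 36.2 in the later columns. It was 17.5 points, and the proximal one 18.5, in cells with 10 to 20 assays other than the members. At a Ct of 26 or less they were 19.6 and 17.1 points. At a Ct of 24 or less 4 of the 6 differences were under 20 points, with 10.4 for distal, 8.43 for proximal, 14.3 for day 5 and 13.9 for day 5 Tsle. The first division kept 25.7 and day 3 21.0. Read as a value, that limit is higher than the median of 15.3 in all cells with Il2ra, so most cells with Il2ra were not counted at it.

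Between later populations, Il2ra was lower at day 7 than at day 5 by 27.1 points, where 5.32% of all genes were lower by at least 20 points. This was 12.8 points when only values at a Ct of 24 or less were counted. Between the paired populations of 1 day, Il2ra differed by less than 20 points. Memory precursors had 21.1% (19 of 90) and short-lived effectors 36.7% (29 of 79) at day 5, a difference of -15.6 points. At day 7 the order was the other way, with 17.7% in Tmp (11 of 62) and 7.87% in Tsle (7 of 89), a difference of 9.88 points. Proximal daughters exceeded distal daughters by 5.45 points, and Tcm lay 5.29 points below Tem.

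Il2rb, the beta chain, was found in 648 of 1449 cells (44.7%). Its share in naive cells was 29 of 149 (19.5%, interval 13.4 to 26.7%). At day 2 it was found in 12 of 48 distal daughters (25%, interval 13.6 to 39.6%), in 40 of 83 proximal daughters (48.2%, interval 37.1 to 59.4%) and in 72 of 144 first-division cells (50.0%, interval 41.6 to 58.4%). At day 3 it was found in 63 of 143 (44.1%, interval 35.8 to 52.6%). Day 5 had the highest share, with 108 of 154 (70.1%, interval 62.2 to 77.2%), followed at day 7 by 58 of 134 (43.3%, interval 34.8 to 52.1%). Tcm cells at day 45 had 87 of 138 (63.0%, interval 54.4 to 71.1%), and Tem cells 28 of 136 (20.6%, interval 14.1 to 28.4%), so the interval of Tcm overlapped those of the day 5 populations and that of Tem overlapped that of naive cells. The sorted populations had 61.1% (Tmp, 55 of 90) and 58.2% (Tsle, 46 of 79) at day 5, and 41.9% (Tmp, 26 of 62) and 27.0% (Tsle, 24 of 89) at day 7. The order was day 5, Tcm, day 5 Tmp, day 5 Tsle, first division, proximal, day 3, day 7, day 7 Tmp, day 7 Tsle, distal, Tem and naive, and again neighbours had overlapping intervals.

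Against naive cells Il2rb was called higher in 9 of 12 populations, all but distal (5.54 points), day 7 Tsle (7.50 points) and Tem (1.13 points). The called differences were 28.7 points in proximal daughters, 30.5 in the first division, 24.6 at day 3, 50.7 at day 5, 41.6 in day 5 Tmp, 38.8 in day 5 Tsle, 23.8 at day 7, 22.5 in day 7 Tmp and 43.6 in Tcm. Beyond the background shares given above, the share of all genes called higher was 9.57% for day 5 Tmp, 10.6% for day 7, 8.51% for day 7 Tmp and 10.6% for Tcm. In the later columns the differences were 16.4 points at day 3, 33.1 at day 5, 10.7 at day 7 and 18.5 in day 7 Tmp. In the earlier columns the day 7 difference was 37.1. The naive share itself was 12.2% in the earlier and 26.7% in the later columns. Over the same columns the share was 45.1% and 43.1% at day 3 and 80.5% and 59.7% at day 5. For day 7 it was 49.3% and 37.3%, and for day 7 Tmp 38.7% and 45.2%. At a Ct of 24 or less, near the median value of cells with Il2rb (16.1), the differences were 10.8 in proximal daughters and 19.8 at day 3. They were 12.6 at day 7 and 11.7 in day 7 Tmp, and the other 5 stayed at 20 points or more. Of these, day 5 Tmp (25.1) and Tcm (22.2) moved by over 1.5 times.

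Il2rb also separated populations from each other. Proximal daughters exceeded distal daughters by 23.2 points, where 8.51% of all genes were called higher. That difference was 19.5 points in cells with at least 10 assays, and the median cell had 18 assays in proximal and 12 in distal daughters. Day 5 exceeded day 3 by 26.1 points, with 12.8% of all genes called higher, and in the later columns by 16.7 points. Day 7 lay 26.8 points below day 5, so that both receptor chains were among the 5.32% of genes called lower there. Tcm exceeded Tem by 42.5 points, with 12.8% of all genes called higher, and by 38.0 points in cells with 10 to 20 other assays. The median cell had 17 assays in Tcm and 11 in Tem. Reference signal differed in the same pairs. Median Actb was 21.0 in Tcm and 17.1 in Tem, and 20.0 in proximal and 18.2 in distal daughters. The part of reference signal in these differences of Il2rb was not tested. Counting only values at a Ct of 24 or less gave 18.7 points for Tcm against Tem and 4.37 points for proximal against distal. Tcm exceeded the day 7 Tmp cells by 21.1 points, with 6.38% of all genes called higher, and by 17.4 points in cells with at least 10 assays. The day 5 Tmp and Tsle cells differed by 2.88 points and those of day 7 by 15.0 points, under the size called.

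The value in cells with a chain was described apart from its share. In the 357 cells with Il2ra the value ran from 4.92 to 20.6 with a median of 15.3. The population medians lay between 14.2 (Tcm) and 16.2 (first division), and 14.5 was the median of the 7 naive cells. In the 648 cells with Il2rb the value ran from 8.30 to 28.2 with a median of 16.1. The value of 28.2 belonged to a single first-division cell, and the next highest was 19.3. The population medians of Il2rb lay between 15.4 (proximal) and 16.8 (day 5). Values of different genes come from different assays and were not compared with each other.

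The median Il2ra value was 1.68 cycles higher in the first division than in naive cells, and 1.18 cycles higher at day 5. Centring each cell on Actb and Gapdh turned these differences to -0.33 and -0.97 cycles, so no direction is given for the amount of Il2ra per detected cell. The median Il2rb value was 1.38 cycles higher at day 5 than in naive cells, and 1.01 cycles higher with the same centring. In the first division it was 1.13 cycles higher and, with that centring, -0.05 cycles. Centring raised the difference of Il2rb from naive cells from 0.44 to 2.36 cycles in Tem and from 0.55 to 2.44 in distal daughters. Both chains moved with column order at day 3, where the median of Il2ra was 14.1 in the earlier and 16.6 in the later columns and that of Il2rb 15.1 and 17.1. At day 5 these medians were 14.4 and 16.1 for Il2ra and 16.1 and 17.3 for Il2rb. Of 26 pairs of a chain and a population, 2 shares (7.69%) differed by at least 20 points between the earlier and the later columns, beside 47 of 1222 pairs (3.85%) over all genes. The 2 shares were those of Il2ra in distal daughters (16.7% and 37.5%) and of Il2rb at day 5 (80.5% and 59.7%).

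**Figure D3:**
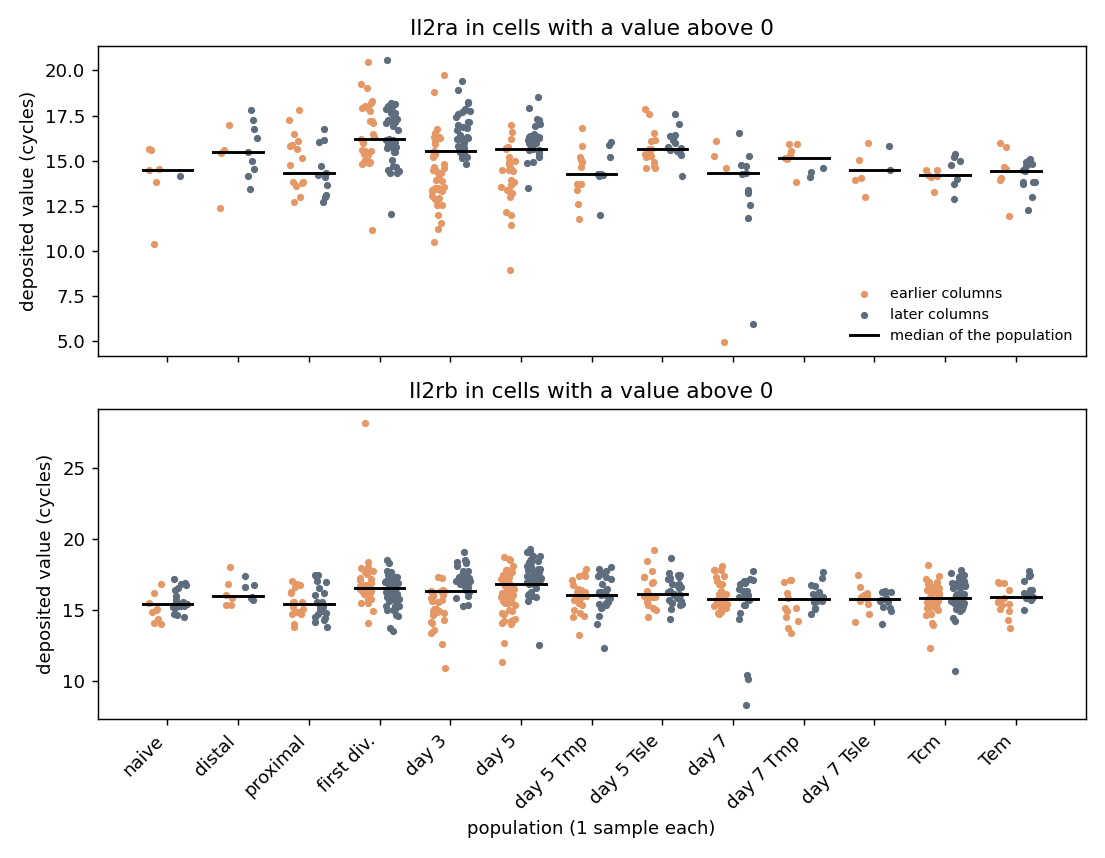
Deposited value in cycles of Il2ra (upper) and Il2rb (lower) in each cell with a value above 0, by population and position of the column; black lines are medians over the population. The day 3 Il2ra medians are 14.1 in the earlier and 16.6 in the later columns, and 1 first-division cell reads 28.2 for Il2rb.

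Both chains were measured in each cell, so cells were sorted into those with neither, one or both. Over all populations, 643 cells (44.4%) had neither chain, 449 (31.0%) Il2rb alone, 158 (10.9%) Il2ra alone and 199 (13.7%) both. Naive cells with both chains numbered 0 of 149, which allows a share of up to 2.01% by the limit of 3 cells and has an exact interval of 0 to 2.45%. Cells with both chains were 6 of 48 distal daughters (12.5%), 12 of 83 proximal daughters (14.5%), 43 of 144 first-division cells (29.9%, interval 22.5 to 38.0%), 45 of 143 day 3 cells (31.5%, interval 24 to 39.8%) and 42 of 154 day 5 cells (27.3%, interval 20.4 to 35%). They were 8 of 90 day 5 Tmp cells (8.89%, interval 3.92 to 16.8%) and 16 of 79 day 5 Tsle cells (20.3%, interval 12 to 30.8%). At day 7 and later their share lay between 4.41% (Tem, 6 of 136) and 5.62% (day 7 Tsle, 5 of 89). The intervals of the first division, day 3 and day 5 thus lay above those of day 7 (1.66 to 9.49%), Tcm (2.06 to 10.2%) and Tem (1.64 to 9.36%). The share with both chains depends on the share of each chain. From day 5 to day 7 that of Il2ra went from 38.3% to 11.2% and that of Il2rb from 70.1% to 43.3%. In naive cells they were 4.70% and 19.5%. The share that unrelated chains would give was not computed.

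The remaining cells differed in which chain they had. Il2rb without Il2ra was most frequent in Tcm, with 80 of 138 cells (58.0%, interval 49.3 to 66.3%), and in day 5 Tmp, with 47 of 90 (52.2%, interval 41.4 to 62.9%). It was least frequent in distal daughters (6 of 48, 12.5%) and at day 3 (18 of 143, 12.6%, interval 7.63 to 19.2%). Il2ra without Il2rb reached its highest share at day 3 (27 of 143, 18.9%, interval 12.8 to 26.3%) and in proximal daughters (15 of 83, 18.1%), and was 6 of 138 in Tcm (4.35%, interval 1.61 to 9.22%). Neither chain was found in 37.1% of day 3 and 32.6% of Tcm cells, and both chains in 31.5% and 5.07%, while neither was found in 69.1% of Tem and 75.8% of naive cells. Cells with both chains had a median of 18 other assays above 0, and cells with neither had 13.

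**Figure D4:**
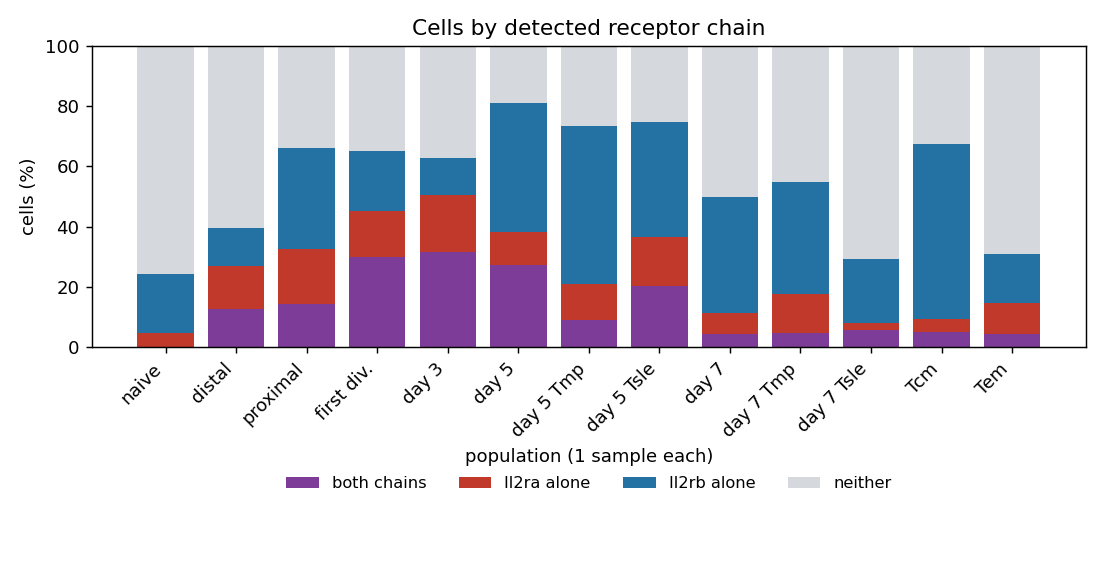
Share of cells (%) with both receptor chains, Il2ra alone, Il2rb alone or neither, stacked to 100 in each population. The class with both chains is widest in the first division (29.9%), at day 3 (31.5%) and at day 5 (27.3%) and at 0 in naive cells, and Il2rb alone takes 58.0% of Tcm.

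The share of Il2rb was also taken in cells with and without Il2ra. At day 3 Il2rb was found in 45 of 72 cells with Il2ra (62.5%, interval 50.3 to 73.6%) and in 18 of 71 without it (25.4%, interval 15.8 to 37.1%). In the first division it was found in 43 of 65 (66.2%, interval 53.4 to 77.4%) and in 29 of 79 (36.7%, interval 26.1 to 48.3%). The intervals of cells with and without Il2ra did not overlap in either population. At day 5 the shares were 71.2% (42 of 59) and 69.5% (66 of 95), in day 5 Tsle 55.2% (16 of 29) and 60.0% (30 of 50), in proximal daughters 44.4% (12 of 27) and 50.0% (28 of 56), and in Tem 30.0% (6 of 20) and 19% (22 of 116), each pair with overlapping intervals. The remaining populations had fewer than 20 cells with Il2ra, and the direction varied among them. Day 5 Tmp had 42.1% (8 of 19) with and 66.2% (47 of 71) without Il2ra. Distal daughters had 46.2% (6 of 13) and 17.1% (6 of 35), and the intervals overlapped in each of these pairs. Cells with Il2ra had more other assays above 0, a median of 20 against 15 in the first division and 16.5 against 14 at day 3. Among cells with 10 to 20 other assays, Il2rb was found in 39 of 58 and 16 of 65 cells at day 3 (67.2% and 24.6%), and in 21 of 35 and 24 of 61 in the first division (60.0% and 39.3%). At this number of assays the intervals overlapped in the first division (42.1 to 76.1% and 27.1 to 52.7%) and not at day 3 (53.7 to 79.0% and 14.8 to 36.9%). In proximal daughters, cells with Il2ra had a median of 21 other assays and cells without it 16. Neither the part of detection in these shares of Il2rb nor the differences between populations in them were tested. Within the later columns of day 3 the shares were 68.8% and 22.5%, and within the earlier columns 57.5% and 29.0% with overlapping intervals. In the first division they were 62.1% and 30.2% in the earlier and 69.4% and 44.4% in the later columns, each pair with overlapping intervals. The Il2ra value at day 3 had a median of 15.7 in the 45 cells with Il2rb and 15.3 in the 27 without it.

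**Figure D5:**
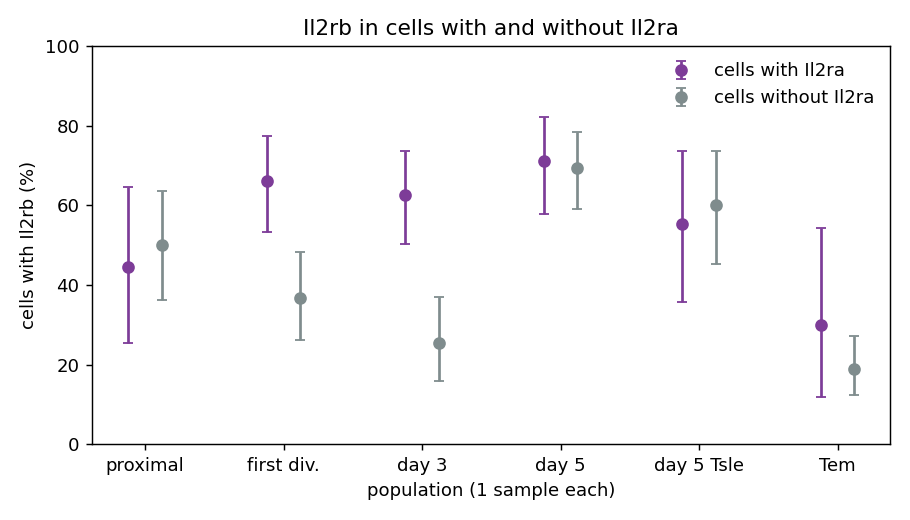
Share of cells (%) with Il2rb among cells with and without Il2ra, in the 6 populations with at least 20 cells of each kind; bars are exact 95% binomial intervals for counting error. The intervals are apart in the first division (66.2% and 36.7%) and at day 3 (62.5% and 25.4%) and overlap in the other populations.

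Of 36 genes listed for the interleukin-2 pathway, 21 were measured. Of the 12 receptors and signalling genes of the family, 1 was measured, Il7r. Of 15 genes known to be induced or repressed by interleukin-2 signals 13 were measured, and of 9 genes upstream of Il2 transcription 7. Il7r, the interleukin-7 receptor chain of naive and memory cells, was found in 32.9% of naive cells, 6.25% of the first division, 9.09% of day 3 cells, 6.49% of day 5 cells, 52.9% of Tcm and 15.4% of Tem. Il7r and Il2rb were thus both more frequent in Tcm than in Tem, while in naive cells Il7r was found in 32.9% and Il2rb in 19.5%. At day 5 Il7r was in 16.7% of Tmp and 1.27% of Tsle cells, and in 19.4% and 2.25% at day 7. The labels do not state the gates of these populations.

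Among genes that interleukin-2 signals are known to act on, Myc was found in 10.7% of naive cells, 61.4% of proximal daughters, 45.8% of distal daughters, 54.9% of first-division cells and 45.5% of day 3 cells, and in 4.55% at day 5. Myc thus was rare at day 5, when Il2ra was still found in 38.3% of cells. Irf4 was found in 0 of the naive cells, 38.9% of the first division, 24.5% of day 3 cells and 5.84% of day 5 cells. Prdm1, which encodes the repressor Blimp-1 of effector cells, was found in 0 day 3 cells and in 20.8% of day 5 cells. Klf2 was found in 79.9% of naive, 34.7% of first-division, 37.8% of day 3 and 93.5% of day 5 cells. Against naive cells, 4 of the 21 genes were higher in the first division, namely Myc, Irf4, Eomes and the costimulatory receptor Cd28. The 2 lower genes were Il7r and Klf2. The list's median was 8.78 points beside 4.51 over all 94 genes, of which 10.6% were higher and 3.19% lower. At day 3, 2 were higher (Myc and Irf4) and the same 2 lower. The median was 7.53 points beside 1.95 over all genes, of which 9.57% were higher and 3.19% lower. From day 3 to day 5, 3 were higher (Prdm1, Klf2 and Cd28) and Myc lower. Of all genes 12.8% were higher and 9.57% lower there, and the list's median was -1.55 points beside 0 over all genes. Between Tcm and Tem, 4 were higher in Tcm (Il7r, Eomes, Foxo1 and Cd28) and 0 lower. Of all genes 12.8% were higher and 0 lower there, and the median was 3.56 points beside 2.15 over all genes. The median cell had 16 assays other than the members above 0 in Tcm and 10 in Tem.

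Within a population, cells with Il2ra were set against cells without it. In the first division, Myc was found in 49 of 65 cells with Il2ra (75.4%, interval 63.1 to 85.2%) and in 30 of 79 without (38.0%, interval 27.3 to 49.6%). Irf4 was found in 58.5% and 22.8%, Gzmb, the cytotoxic protease granzyme B, in 32.3% and 6.33%, and Klf2 in 21.5% and 45.6%. These were the 3 list genes higher and the 1 lower by at least 20 points, of 21, beside 8.6% and 1.08% of the other 93 genes, and the list's median difference was 4.73 points beside 1.81. At day 3, Myc was found in 46 of 72 cells with Il2ra (63.9%, interval 51.7 to 74.9%) and in 19 of 71 without (26.8%, interval 16.9 to 38.6%), Irf4 in 37.5% and 11.3%, and Klf2 in 11 of 72 (15.3%, interval 7.88 to 25.7%) and 43 of 71 (60.6%, interval 48.3 to 72.0%). Here 2 list genes were higher and 1 lower, beside 8.6% and 3.23% of the 93, with medians of 4.11 and 1.12 points. In proximal daughters Irf4 alone of the list was higher (48.1% and 17.9%), beside 5.38% of the 93. At day 5 Rela, an NF-kappa B subunit, alone of the list was higher (57.6% and 32.6%), beside 1.08% of the 93, and Klf2 was found in 89.8% and 95.8%. In day 5 Tsle and in Tem 0 of the 21 list genes were higher or lower, beside 3.23% and 2.15% of the 93 higher, and Myc was found in 1 of 29 and 0 of 20 cells with Il2ra. Cells with Il2ra also had more other assays above 0, as given above.

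For Il2rb the same division gave fewer differences. At day 3 Myc was found in 37 of 63 cells with Il2rb (58.7%) and in 28 of 80 without (35%), the 1 list gene higher by at least 20 points, beside 3.23% of the 93 other genes. In proximal daughters Klf2 was found in 23 of 40 cells with Il2rb (57.5%, interval 40.9 to 73.0%) and in 8 of 43 without (18.6%, interval 8.39 to 33.4%), beside 3.23% of the 93. In day 5 Tmp cells Klf2 was found in 83.6% and 62.9%, beside 1.08% of the 93 higher, and in day 7 Tmp cells Cd28 in 57.7% and 27.8%, beside 3.23%. In the other 8 populations with at least 20 cells of each kind, 0 of the 21 list genes differed by 20 points between cells with and without Il2rb, beside 1.21% of the comparisons over all genes there.

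The pattern of each chain over populations was set against that of the other genes, by the Spearman correlation of shares over the 13 populations among 75 genes found in at least 5% of some population. Genes most like Il2ra included Bmi1 (rho 0.77) and Tnfrsf9 (0.75). Those most like Il2rb were Runx2 (0.78), Ptprc (0.75) and Cxcr3 (0.75). Il2ra and Il2rb had a rho of 0.48 with each other. The median number of other assays per cell had a rho of 0.53 with the share of Il2ra and 0.81 with that of Il2rb. That number depends on expression as well as on detection, and the part of detection in these likenesses was not tested.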

How the data were processed

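Single CD8+ T cells were sorted into a preamplification mix, amplified for 18 cycles with pooled TaqMan assays, diluted 5-fold and measured on Fluidigm arrays, per the labels' protocols. The deposited table holds log2 amounts on the scale of PCR cycles, which the authors' labels call Ct and not normalized. The design was written for Ct and kept with the reading as 40 minus Ct. No genome build, gate, number of mice or array position is given in the sources used here. Of 95 rows, 93 were matched by accession to RefSeq (GRCm38.p6).

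Groups came from the column headings, and no cell columns were identical. Shares were computed with exact 95% intervals in scipy 1.17.1 (Python 3.11.15, numpy 2.4.6, matplotlib 3.10.9), and each population's columns were split by file order into an earlier and a later part. The 20-point rule and the exact intervals were first run on simulated counts of cells, drawn per gene from the naive shares. The other steps were not run on simulated data. The text names the members, the listed pathway genes, the 3 genes most like each chain and the 3 that differed most with Il2 at day 3. A gene that this rule names is not reported here. Members and lists were chosen with earlier results of these data known. Alternatives were stricter detection limits (Ct 28, 26 and 24), a minimum of 10 or 20 assays, 10 to 20 other assays, each part of the columns, either Il2 row, the mean for the median, and centring on reference genes. Cells from separate mice cannot be told apart, so intervals leave out the spread between mice.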

Additional observations from a re-analysis of the deposited data

How the results depend on the processing

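Each of the 21 called differences of a member kept its sign under every alternative that gave a value. Of these, 21 still reached 20 points at a Ct of 28 or less, 18 at 26, 9 at 24, 19 with at least 10 assays, 19 with 10 to 20 other assays, 19 in the earlier and 17 in the later columns. With at least 20 assays only 3 could be given, of which 1 did; a class under 10 cells gave no value. At a Ct of 24 or less, Il2 at day 3 was found in 3.50% of cells. As a value this limit lies above the median in cells with Il2ra (15.3) and near that in cells with Il2rb (16.1). Many cells with a chain were thus not counted at it. The differences there were 25.7 points for Il2ra in the first division against naive, -12.8 for Il2ra from day 5 to day 7, 4.37 for Il2rb in proximal against distal, 24.1 for Il2rb from day 3 to day 5 and 18.7 for Il2rb in Tcm against Tem. The excess of Il2rb in cells with Il2ra was 16.0 points in the first division and 30.5 at day 3. At a Ct of 26 or less Il2ra from day 5 to day 7 was -23.2 points. With at least 20 assays Il2 at day 3 was 29.4%, Il2ra from day 5 to day 7 -40.3 points and Il2rb from day 3 to day 5 19.9 points. With at least 10 assays Il2rb in proximal against distal was 19.5 points, and with 10 to 20 other assays Il2ra in the first division against naive was 31.8. The later columns gave 48.7 points for the latter, and Il2rb from day 3 to day 5 was 35.4 in the earlier and 16.7 in the later columns. Il2ra from day 5 to day 7 was -27.8 in the earlier columns. Apart from the limits themselves, the causes were not tested. Centring on either pair of reference genes moved 10 of 24 differences in median value by more than 1 SD over the cells of the population. A smaller move could still change the sign. Il2rb in the first division against naive went from 1.13 to -0.05 cycles on Actb and Gapdh and was not among the 10. No paired analysis was possible because each population is 1 sample and the labels carry no replicate numbers. The number of cells, from 48 to 154, limits all shares.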
